A study of Homo sapiens with 15 samples.

Results

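The enzymes and regulators by which a cell makes cholesterol and fatty acids, 33 genes listed by name, were followed in A549 cells treated with geldanamycin. A549 is an established human lung carcinoma line, and geldanamycin is a small molecule that blocks the chaperone HSP90 by occupying its ATP site. Members were found by their current or former symbols. Of the 33 listed genes, 31 had a probe set with exactly 1 gene symbol and are described here, out of 19775 genes tested on the array. FDFT1 and CYP51A1 were not analysed here.

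Total RNA was hybridised to 15 Affymetrix arrays, 3 for each of 5 groups. At 24 h there were a vehicle group and a 40 nM geldanamycin group, and at 48 h a vehicle group, a 10 nM geldanamycin group and a 40 nM geldanamycin group. The vehicle was DMSO at 0.4%, cells attached for 24 h before treatment, and the labels give 40 nM and 10 nM as the IC50 and IC20 doses. Whether the 3 arrays of a group stand for separate cultures is not in the labels, and every p-value therefore rests on array-to-array spread that may be technical.

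Cholesterol is made from acetyl-CoA through mevalonate, isoprenoid diphosphates and squalene, and fatty acids are made from the same cytosolic acetyl-CoA. SREBP transcription factors, the products of SREBF1 and SREBF2, switch on most genes of both routes when membrane sterol is low. SCAP escorts SREBP from the endoplasmic reticulum to the Golgi, where it is cleaved, while INSIG proteins hold the pair back when sterol is plentiful. INSIG1 is itself an SREBP target. When oxysterols accumulate, the liver X receptors (LXR) switch on export genes such as ABCA1. HSP90 has been described as a binding partner of the SCAP and SREBP complex.

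The 250 bases before the RefSeq gene start of 5 members are shown because these genes stand for the patterns described below. INSIG1 and ABCA1 had the largest responses among the regulators and transporters, SREBF2 encodes the factor that acts on sterol genes, and HMGCS1 and EBP are pathway enzymes that moved in opposite directions. Capitals mark CCAAT (read on the other strand as ATTGG), which binds NF-Y, a partner of SREBP. They also mark the E-box CACGTG, the sterol regulatory element TCACNCCAC and an LXR element in the form known from ABCA1, in which AGGTTA and CGGTCA are spaced by 4 bases. Sequences are from RefSeq on GRCh38.p14 and run 5′ to 3′ on the strand of the gene.
INSIG1 lies on the plus strand and the window is chr7:155297628-155297877.
INSIG1: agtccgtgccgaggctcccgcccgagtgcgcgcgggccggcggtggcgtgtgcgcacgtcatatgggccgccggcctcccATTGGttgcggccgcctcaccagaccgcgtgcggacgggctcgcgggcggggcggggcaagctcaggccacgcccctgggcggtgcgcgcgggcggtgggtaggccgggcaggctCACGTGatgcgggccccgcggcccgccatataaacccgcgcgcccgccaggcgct
ABCA1 lies on the minus strand and the window is chr9:104928156-104928405.
ABCA1: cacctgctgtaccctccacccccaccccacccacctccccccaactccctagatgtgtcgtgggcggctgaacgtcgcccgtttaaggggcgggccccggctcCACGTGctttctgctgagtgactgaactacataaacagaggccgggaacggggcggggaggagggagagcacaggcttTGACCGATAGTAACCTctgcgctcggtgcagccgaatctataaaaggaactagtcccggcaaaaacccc
SREBF2 lies on the plus strand and the window is chr22:41832855-41833104.
SREBF2: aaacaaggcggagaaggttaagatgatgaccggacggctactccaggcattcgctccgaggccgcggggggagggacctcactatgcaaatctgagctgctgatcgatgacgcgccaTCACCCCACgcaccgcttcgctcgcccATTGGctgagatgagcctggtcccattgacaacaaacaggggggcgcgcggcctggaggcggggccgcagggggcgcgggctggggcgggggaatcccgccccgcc
HMGCS1 lies on the minus strand and the window of the first of its 2 starts is chr5:43313413-43313662.
HMGCS1: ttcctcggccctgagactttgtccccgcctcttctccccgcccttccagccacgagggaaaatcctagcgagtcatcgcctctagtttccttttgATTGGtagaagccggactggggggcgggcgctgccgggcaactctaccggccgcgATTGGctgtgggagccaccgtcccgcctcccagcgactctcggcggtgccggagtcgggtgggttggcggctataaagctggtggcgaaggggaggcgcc
EBP lies on the plus strand and the window is chrX:48521558-48521807.
EBP: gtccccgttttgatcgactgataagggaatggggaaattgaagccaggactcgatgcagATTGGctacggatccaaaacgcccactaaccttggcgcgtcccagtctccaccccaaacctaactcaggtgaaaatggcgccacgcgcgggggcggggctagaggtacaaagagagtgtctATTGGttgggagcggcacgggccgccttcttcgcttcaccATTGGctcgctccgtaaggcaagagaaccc

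A promoter window matched 27 of the 31 measured members, and 8 motifs were searched on both strands. CCAAT stood in 21 of these 27 members (77.78%), against 39.73% of the 15384 genes tested that have a window and 32.01% of all 35116 windows. In INSIG1 it lay at -170 to -166 from the gene start, with the E-box at -55 to -50. EBP held 3 CCAAT letters, and HMGCS1 held 2 in its first window. The GC box GGGCGG stood in 26 members (96.30%), against 62.32% of genes tested. The E-box stood in 4 members, ABCA1, INSIG1, SC5D and SCAP (14.81%), against 9.69% of genes tested. TCACNCCAC was found in 1 member, SREBF2 (3.70%), at -133 to -125, against 1.14% of genes tested. The LXR element in that form, searched because it is known from ABCA1, was found in ABCA1 alone among the members, at -69 to -54, and in 0.01% of genes tested. TGACNNNGC, the antioxidant response element, was in HMGCS1 and INSIG2 (7.41%), against 15.23% of genes tested. The heat shock element, with GAA, TTC and GAA spaced by 2 bases, and the regular LXR element, with AGGTCA repeated after 4 bases, were in 0 member windows, against 0.53% and 0.01% of genes tested. These are letter matches in short windows, and binding was not measured.

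The values are log2 RMA signals, so a difference of 1 is a doubling, and the order of levels between genes depends on their probes and is not read here. The mean over all probe sets with 1 gene symbol was 5.46 on the 24 h vehicle arrays and 5.825 on the 48 h vehicle arrays. It differed little within a time, so only effects, not levels, are compared across times. The 10 nM arrays stood apart on their control probes. Their poly-A spike signal was 3.37 ± 0.04 (SD, n = 3), against 5.93 ± 0.06 on the 48 h vehicle and 5.81 ± 0.08 on the 40 nM arrays. The ACTB 3′ probe set exceeded the 5′ one by 2.68 ± 0.03 on the 10 nM arrays and by 0.35 ± 0.06 on the 48 h vehicle arrays, while that difference for GAPDH was 0.13 and 0.15. All 3 arrays of the 10 nM group shared this, so it cannot be told apart from the dose in any comparison with that group. As means over the 15 arrays, the 7 epithelial marker probe sets read from 4.89 to 13.7, the alveolar type 2 ones from 3.09 to 7.58 and the fibroblast ones from 3.48 to 8.26. Leukocyte, endothelial and hepatocyte markers read from 3.25 to 5.07, 2.89 to 5.37 and 2.78 to 5.64. Epithelial markers were 5 higher and 2 lower with 40 nM at 24 h, and 6 higher and 1 lower with 40 nM at 48 h. With 10 nM they were 3 higher and 2 lower, with changes from -2.41 (KRT19) to 2.82. Over all genes 31.5%, 21.3% and 26.3% passed in these comparisons. Of 7 fibroblast markers, 2 were higher and 0 lower, 1 higher and 1 lower, and 0 higher and 3 lower in that order. Of 5 leukocyte markers, 0 passed at 24 h, 2 were higher with 40 nM at 48 h (ITGAM at 1.21 and CD14 at 0.86), and 1 was higher with 10 nM (ITGAM at 1.11). Hepatocyte markers were 1 higher with 40 nM at each time, 1 alveolar type 2 marker was higher with 10 nM, and no endothelial marker passed in these 3 comparisons. KRT19, ITGAM and CD14 were singled out after their values were seen. The part of these markers in the results was not tested, and in bulk RNA fewer cells of a type and less RNA per cell cannot be told apart.

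Members moved in both directions in each comparison. With 40 nM at 24 h, 10 of 31 members rose and 6 fell by limma at an adjusted p under 0.05, where 31.5% of all genes passed, 14.8% upward and 16.7% downward. Probe sets of higher signal passed more often, and with the dimmest 40% of genes left out 55.2% of the 29 remaining members passed against 53.7% of genes. The members' share was thus near the background once brightness was alike. At 48 h, 8 rose and 2 fell with 40 nM, where 21.3% of genes passed (10.5% upward and 10.7% downward), and 34.5% of the brighter members did so against 38.9% of the brighter genes. With 10 nM at 48 h, 8 rose and 5 fell, where 26.3% of genes passed (14.4% upward and 11.9% downward), and the brighter shares were 44.8% and 45.6%. The 10 nM split moved with the scaling, to 8 higher and 9 lower after cyclic loess and to 4 higher and 5 lower after subtraction of array medians. The members' median change was 0.08, 0.07 and -0.01 in these 3 comparisons, beside -0.01, -0.02 and 0.00 for all genes. The 10 nM and 40 nM groups at 48 h share the vehicle arrays.

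**Figure D1:**
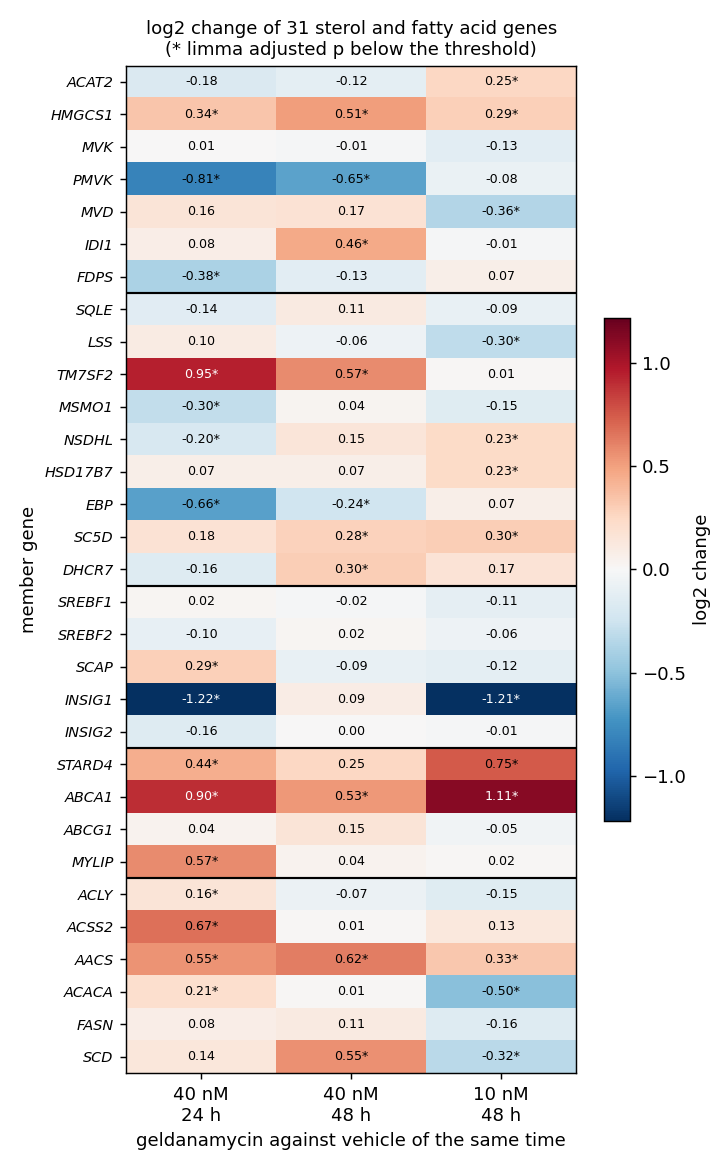
Log2 change of each of the 31 measured members against vehicle of the same time, with 40 nM at 24 h, 40 nM at 48 h and 10 nM at 48 h as columns and genes ordered by role. Red is higher, blue is lower and an asterisk marks a limma adjusted p under 0.05. INSIG1 is the deepest blue cell at 24 h (-1.22) and with 10 nM (-1.21) and is at 0.09 with 40 nM at 48 h.

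Among the SREBP factors and the proteins that retain them, INSIG1 changed most. INSIG1 read 7.52, 7.44 and 7.25 on the vehicle arrays at 24 h and 6.30, 6.04 and 6.22 with 40 nM. At 48 h it read 8.42, 8.34 and 8.30 with vehicle, 7.21, 7.14 and 7.08 with 10 nM, and 8.40, 8.53 and 8.40 with 40 nM. Thus both the 24 h high-dose arrays and the 48 h low-dose arrays lay below all of their controls, while the 48 h high-dose arrays overlapped theirs. INSIG1 fell by 1.22 ± 0.08 (SE) on the log2 scale at 24 h, a 2.33-fold decrease (adjusted p = 5.88e-08). With 10 nM at 48 h it fell by 1.21 ± 0.08, or 2.32-fold (adjusted p = 9.18e-08). With 40 nM at 48 h the difference was 0.09, with a 95% interval from -0.09 to 0.27. All 3 INSIG1 probe sets passed at 24 h, with changes of -1.0, -1.22 and -1.19, and with 10 nM, with changes of -0.46, -1.21 and -1.59. None of the 3 passed with 40 nM at 48 h (0.11, 0.09 and -0.09). INSIG1 kept its calls in every alternative run for the 24 h, 10 nM and dose comparisons and for the difference between times.

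The other 4 genes of this group differed little. SCAP, the escort, rose by 0.29 ± 0.07 with 40 nM at 24 h, from 8.12, 8.02 and 7.89 to 8.31, 8.30 and 8.30 (adjusted p = 0.00589). At 48 h SCAP was at -0.09 with 40 nM and -0.12 with 10 nM, and neither passed. SREBF1 was at 0.02 at 24 h (95% interval -0.12 to 0.17), -0.02 with 40 nM at 48 h (-0.16 to 0.13) and -0.11 with 10 nM (-0.25 to 0.04). SREBF2 was at -0.10 (-0.34 to 0.14), 0.02 (-0.22 to 0.27) and -0.06 (-0.30 to 0.18), and INSIG2 was at -0.16, 0.00 and -0.01. For SREBF2 a dimmer probe set fell by 0.29 at 24 h, with an adjusted p of 0.048 over all probe sets. The intervals of SREBF1 exclude a change of 1.22, the size seen for INSIG1.

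**Figure D2:**
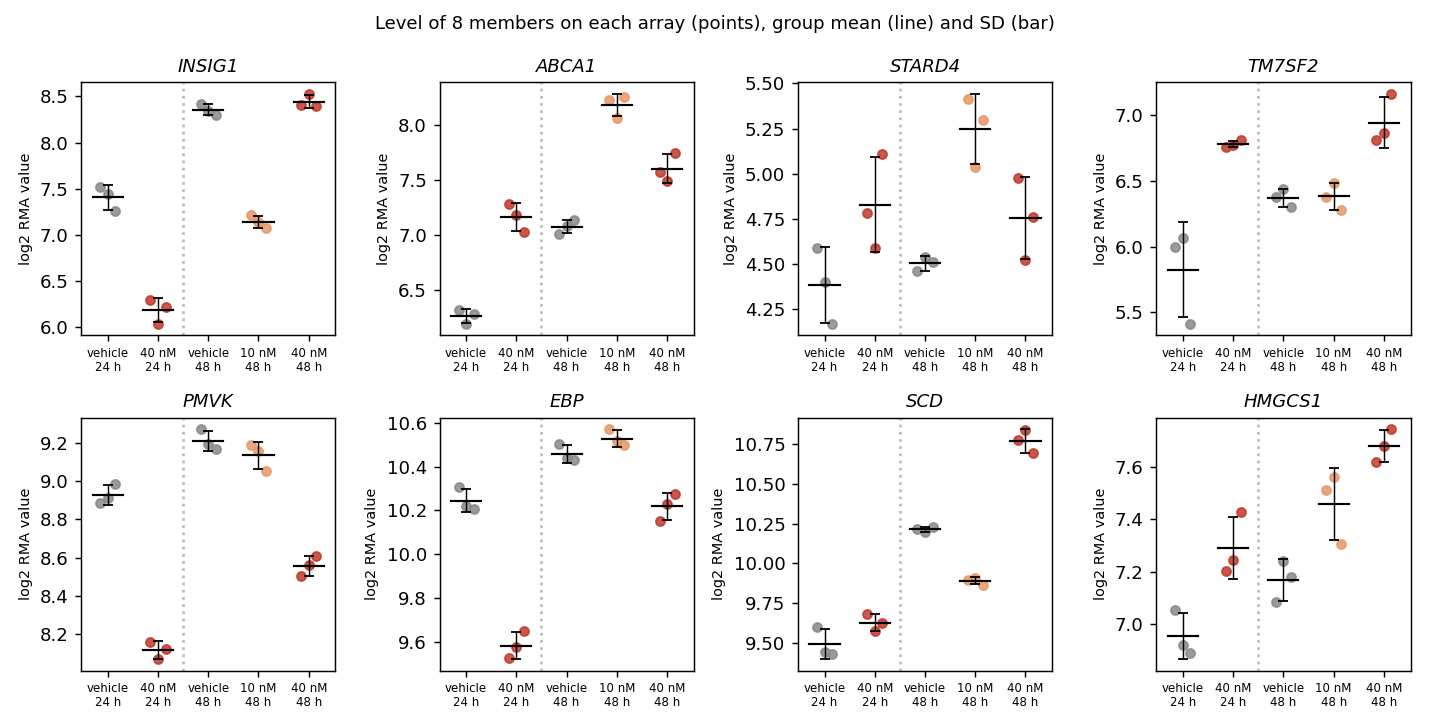
Log2 RMA value (vertical axis) of INSIG1, ABCA1, STARD4, TM7SF2, PMVK, EBP, SCD and HMGCS1 on each of the 15 arrays, by group, with points for arrays, a line for the mean and a bar for the SD (n = 3). A dotted line parts the 24 h and 48 h arrays, whose levels are not on 1 scale. INSIG1 is low with 40 nM at 24 h and with 10 nM at 48 h, while SCD is low with 10 nM and high with 40 nM at 48 h.

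In the steps from acetyl-CoA to farnesyl diphosphate, enzymes of 1 route moved in opposite directions. HMGCS1, which makes HMG-CoA, rose in all 3 comparisons with vehicle, while PMVK, the kinase that adds the next phosphate to phosphomevalonate, fell with 40 nM at both times. HMGCS1 read 7.05, 6.92 and 6.89 with vehicle and 7.20, 7.24 and 7.43 with 40 nM at 24 h. The 48 h values were 7.08, 7.24 and 7.18 with vehicle, 7.51, 7.56 and 7.30 with 10 nM, and 7.62, 7.68 and 7.74 with 40 nM. No treated array of either dose reached down to its controls. The changes were 0.34 ± 0.08 at 24 h (adjusted p = 0.0058), 0.51 ± 0.08 with 40 nM at 48 h (adjusted p = 0.000448) and 0.29 ± 0.08 with 10 nM (adjusted p = 0.0171). The 10 nM call was lost without vehicle array 1 (adjusted p = 0.0747), 10 nM array 1 (0.0671) or 10 nM array 2 (0.0833), and with the mean of the probe sets (0.145).

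PMVK read 8.88, 8.91 and 8.99 with vehicle and 8.16, 8.07 and 8.12 with 40 nM at 24 h. At 48 h the vehicle arrays read 9.27, 9.19 and 9.17, the 10 nM arrays 9.19, 9.16 and 9.05, and the 40 nM arrays 8.50, 8.56 and 8.61. The 40 nM arrays were low at both times and the 10 nM arrays overlapped vehicle. PMVK fell by 0.81 ± 0.06 at 24 h, or 1.75-fold (adjusted p = 1.01e-07), and by 0.65 ± 0.06 with 40 nM at 48 h, or 1.57-fold (adjusted p = 2.11e-06). With 10 nM its difference was -0.08, which did not pass. The difference of the 40 nM effects between times was 0.16 and did not pass either.

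Farnesyl diphosphate synthase, FDPS, fell by 0.38 ± 0.06 with 40 nM at 24 h, from 10.53, 10.51 and 10.40 to 10.14, 10.01 and 10.14 (adjusted p = 0.000187). Its difference at 48 h was -0.13 with 40 nM and 0.07 with 10 nM. IDI1, which interconverts the isoprenoid diphosphates, rose by 0.46 ± 0.06 with 40 nM at 48 h, from 9.23, 9.24 and 9.10 to 9.57, 9.70 and 9.67 (adjusted p = 8.09e-05). That call rested on the probe set used and on another whose change was 0.41, while its other probe sets were at 0.06 and -0.07. With the mean of its probe sets IDI1 was at 0.22 (adjusted p = 0.0652). On the set used IDI1 was at 0.08 at 24 h and -0.01 with 10 nM, and neither passed. Of its 4 probe sets, 1 passed as lower at 24 h, where changes ran from -0.28 to 0.08. With 10 nM 1 passed as higher, and changes ran from -0.05 to 0.41. ACAT2, the thiolase that joins acetyl-CoA units, rose by 0.25 ± 0.07 with 10 nM (adjusted p = 0.0113), but not without vehicle array 3 (0.0609). MVD, which makes isopentenyl diphosphate, fell by 0.36 ± 0.12 with 10 nM (adjusted p = 0.0449). The MVD arrays overlapped, and its call was lost without vehicle array 1 or 3 or 10 nM array 2 or 3 (adjusted p from 0.105 to 0.181). MVK, the mevalonate kinase, was at 0.01, -0.01 and -0.13 and did not pass on the probe set used. Among its 4 probe sets, 1 passed as lower at 24 h and 1 with 10 nM. The lowest changes there were -0.58 and -0.39. Of the 7 genes of these steps, 1 rose and 2 fell at 24 h, 2 rose and 1 fell with 40 nM at 48 h, and 2 rose and 1 fell with 10 nM. The share was 42.9% in each, beside 31.5%, 21.3% and 26.3% of all genes. Among brighter genes 53.7%, 38.9% and 45.6% passed.

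From squalene to cholesterol, 9 genes were measured, and with 40 nM TM7SF2 rose while EBP fell. TM7SF2, a sterol reductase that acts after lanosterol is demethylated, read 6.0, 6.06 and 5.41 with vehicle and 6.75, 6.77 and 6.80 with 40 nM at 24 h. Its 48 h values were 6.37, 6.43 and 6.30 with vehicle, 6.38, 6.48 and 6.28 with 10 nM and 6.80, 6.86 and 7.16 with 40 nM. All 40 nM arrays were high and the 10 nM arrays lay among the controls. TM7SF2 rose by 0.95 ± 0.14 at 24 h (adjusted p = 9.63e-05) and by 0.57 ± 0.14 with 40 nM at 48 h (adjusted p = 0.00862), and was at 0.01 with 10 nM.

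EBP, the sterol isomerase a few steps on, read 10.31, 10.22 and 10.21 with vehicle and 9.53, 9.57 and 9.65 with 40 nM at 24 h. At 48 h it read 10.50, 10.44 and 10.43 with vehicle, 10.57, 10.52 and 10.50 with 10 nM, and 10.15, 10.23 and 10.27 with 40 nM. The high dose lay below vehicle at both times, and the low dose touched it. EBP fell by 0.66 ± 0.06 at 24 h, or 1.58-fold (adjusted p = 5.46e-07), and by 0.24 ± 0.06 at 48 h (adjusted p = 0.00678). The 48 h call was lost without probe sets that may match several transcripts, at -0.21 (adjusted p = 0.117). At 24 h, 2 of the 4 EBP probe sets passed as lower, and their changes ran from -0.66 to 0.12. With 40 nM at 48 h, 1 of the 4 passed, and they ran from -0.32 to -0.01.

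MSMO1, which oxidises the methyl groups of sterols, fell by 0.30 ± 0.08 with 40 nM at 24 h (adjusted p = 0.0119), but not without 40 nM array 1 (0.0587). NSDHL, of the same demethylating complex, fell by 0.20 ± 0.06 at 24 h (adjusted p = 0.0231) and rose by 0.23 ± 0.06 with 10 nM at 48 h (adjusted p = 0.0124). Its 24 h call was lost without vehicle array 1 or 2 or 40 nM array 1 or 3 (adjusted p from 0.0562 to 0.0747). Its 10 nM call was lost without vehicle array 2 (0.0585) or 10 nM array 1 (0.064) or 2 (0.0503). HSD17B7, the keto-sterol reductase of that complex, rose by 0.23 ± 0.06 with 10 nM (adjusted p = 0.0107), though not once array medians were subtracted (0.0632). Its 1 probe set may match several transcripts, so HSD17B7 was not measured without such sets. LSS, which cyclises squalene epoxide to lanosterol, fell by 0.30 ± 0.06 with 10 nM (adjusted p = 0.00213), from 8.10, 7.99 and 7.93 to 7.69, 7.72 and 7.70. Its other probe sets were at -0.05 and 0.14, and their mean with it was at -0.07 (adjusted p = 0.574).

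SC5D, the sterol desaturase, rose by 0.28 ± 0.09 with 40 nM (adjusted p = 0.0407) and by 0.30 ± 0.09 with 10 nM at 48 h (adjusted p = 0.0232). The 40 nM call was lost without any 1 of the 6 arrays compared (adjusted p from 0.0608 to 0.125), and the 10 nM call without vehicle array 2 (0.0809) or 3 (0.0515) or 10 nM array 1 (0.115) or 2 (0.103). DHCR7, the reductase that yields cholesterol, rose by 0.30 ± 0.09 with 40 nM at 48 h (adjusted p = 0.0301). That call was lost without vehicle array 1, 2 or 3 or 40 nM array 2 (adjusted p from 0.0657 to 0.148). SQLE, the epoxidase, was at -0.14, 0.11 and -0.09 and did not pass against vehicle on the probe set used. At 24 h, 2 of its 4 probe sets passed as lower. Of its dimmer probe sets, 1 fell by 0.69 and another rose by 0.39 with 10 nM, so SQLE has no settled direction there. Of the 9 genes, 1 rose and 3 fell at 24 h, 3 rose and 1 fell with 40 nM at 48 h, and 3 rose and 1 fell with 10 nM. The share was 44.4% in each, beside 31.5%, 21.3% and 26.3% of all genes. Among brighter genes 53.7%, 38.9% and 45.6% passed.

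On the probe sets used, sterol transfer and export genes moved upward where they passed. ABCA1, the pump that loads cholesterol and phospholipid onto apolipoproteins, read 6.32, 6.19 and 6.28 with vehicle and 7.29, 7.19 and 7.03 with 40 nM at 24 h. At 48 h it read 7.01, 7.09 and 7.14 with vehicle, 8.23, 8.07 and 8.26 with 10 nM, and 7.58, 7.49 and 7.75 with 40 nM. The 3 groups at 48 h were separate, with 10 nM highest and vehicle lowest. ABCA1 rose by 0.90 ± 0.08 at 24 h, or 1.87-fold (adjusted p = 1.2e-06), and by 0.53 ± 0.08 with 40 nM at 48 h, or 1.44-fold (adjusted p = 0.000371). With 10 nM it rose by 1.11 ± 0.08, or 2.16-fold (adjusted p = 2.51e-07). A second probe set rose by 1.32, 0.59 and 0.82, while the remaining pair were at 0.14 and 0.10 at 24 h, -0.38 and -0.09 with 40 nM at 48 h, and -0.37 and -0.06 with 10 nM. Of these, -0.37 passed as a decrease. With the mean of its probe sets, ABCA1 at 40 nM for 48 h was at 0.16 (adjusted p = 0.143).

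STARD4, which carries cholesterol between membranes, read 4.46, 4.54 and 4.51 with vehicle, 5.41, 5.04 and 5.30 with 10 nM, and 4.98, 4.52 and 4.76 with 40 nM at 48 h. Only the 10 nM arrays lay clear of vehicle. STARD4 rose by 0.75 ± 0.15 with 10 nM, or 1.68-fold (adjusted p = 0.00161), and was at 0.25 with 40 nM at 48 h. At 24 h it rose by 0.44 ± 0.15 (adjusted p = 0.0341), a call lost without vehicle array 2 (0.0702) or 3 (0.138) or 40 nM array 1 (0.0616) or 3 (0.155). MYLIP, an LXR target and ubiquitin ligase for lipoprotein receptors, rose by 0.57 ± 0.12 at 24 h, from 4.97, 5.18 and 5.16 to 5.90, 5.76 and 5.37 (adjusted p = 0.00155). At 48 h it was at 0.04 and 0.02. Without probe sets that may match several transcripts MYLIP was at 0.07 at 24 h (adjusted p = 0.628). Over all 6 of its probe sets, 4 passed as higher and 0 as lower at 24 h, with changes from 0.07 to 0.83. ABCG1, which exports cholesterol to lipoprotein particles, was at 0.04, 0.15 and -0.05, though a dimmer probe set rose by 0.65 at 24 h. In all, 2 of its 4 probe sets passed as higher at 24 h.

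On the probe sets used, genes that supply acetyl-CoA and build fatty acids rose or did not pass with 40 nM, and split with 10 nM. AACS, which activates acetoacetate for lipid synthesis, rose in all 3 comparisons. It read 8.66, 8.52 and 8.51 with vehicle and 9.03, 9.14 and 9.16 with 40 nM at 24 h. Later, at 48 h, it read 8.89, 8.81 and 8.72 with vehicle, 9.20, 9.23 and 9.0 with 10 nM, and 9.39, 9.51 and 9.39 with 40 nM. No treated AACS array overlapped its controls. The changes were 0.55 ± 0.08 (adjusted p = 6.05e-05), 0.62 ± 0.08 with 40 nM at 48 h (adjusted p = 4.29e-05) and 0.33 ± 0.08 with 10 nM (adjusted p = 0.00459). ACSS2, which makes acetyl-CoA from acetate, rose by 0.67 ± 0.07 at 24 h, from 6.69, 6.60 and 6.65 to 7.30, 7.17 and 7.48 (adjusted p = 6.34e-06), and was at 0.01 and 0.13 at 48 h. ACLY, which splits citrate, rose by 0.16 ± 0.05 at 24 h (adjusted p = 0.0414), a call lost without vehicle array 2 (0.0781) or 3 (0.142) or 40 nM array 1 (0.104) or 3 (0.12). At 48 h ACLY was at -0.07 with 40 nM and -0.15 with 10 nM, and neither passed. With 10 nM, 2 of its 3 probe sets passed as lower, and changes ran from -0.48 to -0.15. The set used passed as lower there in 4 of 13 alternatives.

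SCD, the desaturase that makes oleate, read 9.60, 9.45 and 9.43 with vehicle and 9.68, 9.58 and 9.63 with 40 nM at 24 h. At 48 h it read 10.22, 10.20 and 10.23 with vehicle, 9.89, 9.91 and 9.87 with 10 nM, and 10.77, 10.84 and 10.69 with 40 nM. The 2 doses thus lay on opposite sides of vehicle at 48 h. SCD rose by 0.55 ± 0.06 with 40 nM (adjusted p = 1.46e-05) and fell by 0.32 ± 0.06 with 10 nM (adjusted p = 0.00095). The rise was on the brightest probe set alone, with the other 3 at -0.02, -0.06 and -0.10, and with the mean of all SCD was at 0.09 (adjusted p = 0.37). ACACA, which makes malonyl-CoA, rose by 0.21 ± 0.05 at 24 h (adjusted p = 0.00877) and fell by 0.50 ± 0.05 with 10 nM (adjusted p = 8.21e-06). Its second probe set fell by 0.50 at 24 h and by 0.34 with 40 nM at 48 h, and rose by 0.26 with 10 nM. The direction for ACACA thus depends on the probe set. FASN, the fatty acid synthase, was at 0.08, 0.11 and -0.16 and did not pass. Of these 6 genes, 4 rose and 0 fell at 24 h, 2 rose and 0 fell with 40 nM at 48 h, and 1 rose and 2 fell with 10 nM. The shares were 66.7%, 33.3% and 50%, beside 31.5%, 21.3% and 26.3% of all genes. Among brighter genes 53.7%, 38.9% and 45.6% passed, and the group was not tested against these shares.

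**Figure D3:**
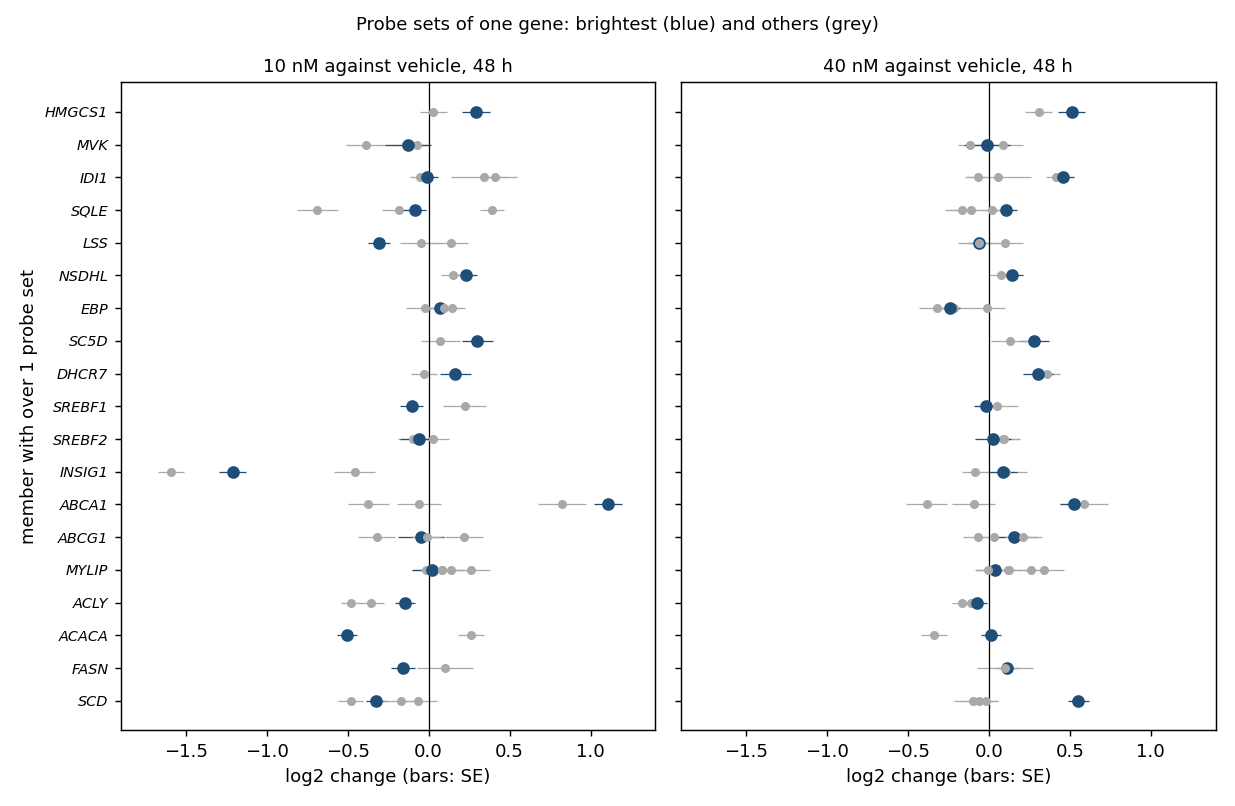
Log2 change (horizontal axis, bars SE) of every probe set with 1 symbol for the 19 members that have several, with 10 nM (left) and 40 nM (right) at 48 h. Blue marks the brightest set, whose value stands for the gene, and grey the others. The INSIG1 sets all lie below 0 with 10 nM, while those of ABCA1, ACACA and SQLE lie on both sides of 0.

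Probe sets were compared for the 19 members with more than 1. Sets that passed in opposite directions occurred for 1 member at 24 h (ACACA), 3 with 10 nM (ABCA1, ACACA and SQLE), 0 with 40 nM at 48 h, and 3 between the doses (ACACA, IDI1 and SQLE). The median range between the probe sets of a gene was 0.29, 0.33, 0.20 and 0.32 in these comparisons. The remaining 12 members have 1 probe set each, among them PMVK, TM7SF2, ACSS2, AACS and STARD4, and could not be checked in this way.

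The doses were compared directly at 48 h, where 40 nM was higher than 10 nM for 10 members and lower for 6, beside 26.4% of all genes that passed, 11.9% upward and 14.5% downward. Among brighter genes the shares were 58.6% of members and 45.8% of genes, and this gap was not tested. INSIG1 was higher by 1.30 ± 0.08 with 40 nM, or 2.46-fold (adjusted p = 5.83e-08), and SCD by 0.88 ± 0.06, or 1.84-fold (adjusted p = 1.31e-07). Of the 4 SCD probe sets, 2 passed as higher, and changes ran from -0.04 to 0.88. The lowest SCD change in an alternative was 0.35. MVD was higher by 0.53, ACACA by 0.52, TM7SF2 by 0.56 and IDI1 by 0.47. With the probe sets of a gene averaged, ACACA turned to -0.043 (adjusted p = 0.711) and IDI1 was at 0.045 (0.779), and without probe sets that may match several transcripts IDI1 turned to -0.28 (0.425). On the lower side PMVK was at -0.58 ± 0.06 (adjusted p = 5.01e-06), ABCA1 was at -0.58 ± 0.08 (adjusted p = 0.000123), STARD4 at -0.49, ACAT2 at -0.37 and EBP at -0.31. FASN passed at 0.27, LSS at 0.25 and AACS at 0.29. With averaged probe sets FASN was at 0.13 (adjusted p = 0.411) and LSS at 0.07 (0.628). AACS did not pass without 10 nM array 3 (0.0518) or 40 nM array 2 (0.0543). FDPS (-0.20), SQLE (0.19) and STARD4 each lost the call without any 1 of several arrays, with adjusted p up to 0.106, 0.153 and 0.112. Without probe sets that may match several transcripts, 3 of the 20 members left were higher and 4 lower. Doses and the control-probe differences given above cannot be told apart here.

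**Figure D4:**
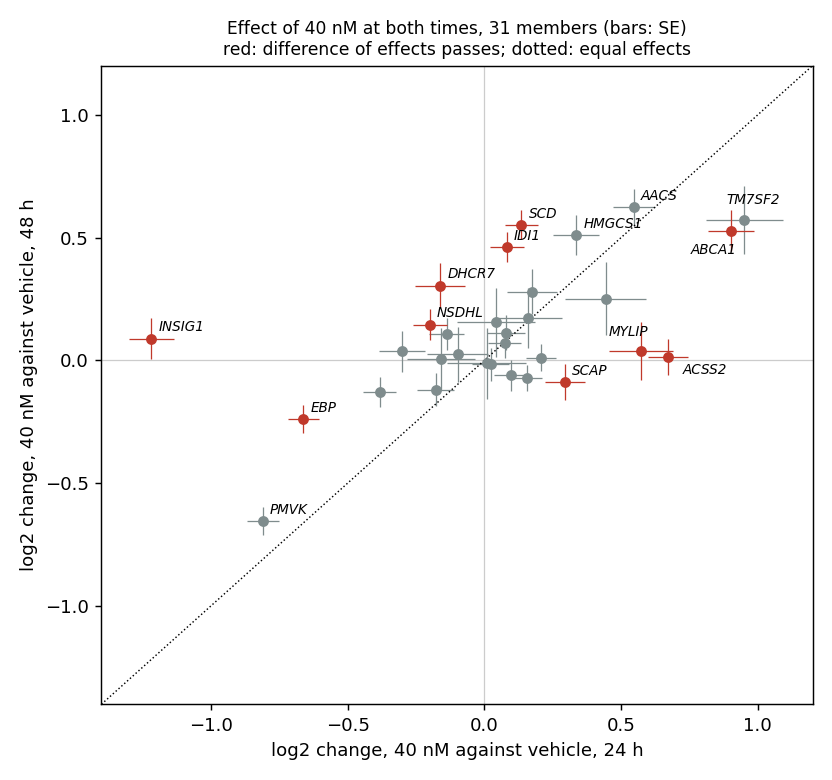
Log2 change with 40 nM against vehicle at 24 h (horizontal axis) and at 48 h (vertical axis) for the 31 members, with SE bars and a dotted line of equal effects. Red marks the 10 members whose difference of effects passed. INSIG1 lies far left at -1.22 and 0.09, PMVK near the line at -0.81 and -0.65, and ACSS2 on the right at 0.67 and 0.01.

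With 40 nM, 16 members passed at 24 h and 10 at 48 h, and 6 passed at both times in the same direction. These were AACS, ABCA1, HMGCS1 and TM7SF2, which rose, and EBP and PMVK, which fell, and 0 members passed in opposite directions. The difference of the effects, 48 h minus 24 h, was tested itself and passed for 10 members, 6 positive and 4 negative, beside 17.3% of all genes, 9.18% positive and 8.11% negative. Among brighter genes 51.7% of members and 33.2% of genes passed, a gap that was not tested. INSIG1 had a difference of 1.31 ± 0.12 (adjusted p = 4.43e-06) and ACSS2 of -0.66 ± 0.10 (adjusted p = 0.000494), and these 2 calls held in all alternatives that measured the gene (ACSS2 has no probe set when those that may match several transcripts are left out). EBP (0.42), DHCR7 (0.47), SCD (0.42), IDI1 (0.38) and NSDHL (0.35) were also positive, and MYLIP (-0.53), SCAP (-0.38) and ABCA1 (-0.37) negative. With averaged probe sets the differences of SCD (0.11, adjusted p = 0.495), EBP (0.14, 0.316) and IDI1 (0.33, 0.0571) did not pass. Without probe sets that may match several transcripts those of NSDHL (0.17, 0.357), IDI1 (0.33, 0.579) and EBP (0.36, 0.0686) did not pass. SCAP did not pass without vehicle array 1 or 40 nM array 1 at 48 h (adjusted p = 0.0535 and 0.0534). It was also lost after subtraction of array medians (0.0542). ABCA1 and MYLIP each lost the call in 14 of 21 alternatives, with adjusted p up to 0.114 and 0.804. DHCR7 lost it in 6 of 20, with adjusted p up to 0.063. Across the 3 comparisons with vehicle, 7 members passed in none on the probe set used: ABCG1, FASN, INSIG2, MVK, SQLE, SREBF1 and SREBF2. Other probe sets of ABCG1, MVK, SQLE and SREBF2 did pass, as given above.

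Genes of 8 adjoining lists were counted, and the share that passed in a list ran from 35.7% to 66.7% with 40 nM at 24 h, 25% to 66.7% with 40 nM at 48 h, and 20% to 75% with 10 nM. Beside these, 31.5%, 21.3% and 26.3% of all genes passed, and 53.7%, 38.9% and 45.6% with the dimmest 40% left out, and no list was tested against them. Of 9 genes that supply NADPH and citrate, 6 rose and 0 fell with 40 nM at 24 h, 5 rose and 1 fell with 40 nM at 48 h, and 2 rose and 2 fell with 10 nM (66.7%, 66.7% and 44.4% of the list). At 24 h malic enzyme ME1 rose by 0.84 ± 0.05, PGD of the pentose phosphate route by 0.74 ± 0.06 and IDH1 by 0.73 ± 0.05, and with 10 nM PGD fell by 0.77 ± 0.06. Of 12 genes of elongation and desaturation, 5 rose and 3 fell at 24 h, 5 rose and 1 fell with 40 nM at 48 h, and 6 rose and 3 fell with 10 nM. SCD5, a second oleate-forming desaturase, rose by 1.32 ± 0.11, 1.34 ± 0.11 and 1.45 ± 0.11 in that order. ELOVL6, which elongates palmitate, fell by 0.84 ± 0.07 at 24 h, and ELOVL2, which elongates polyunsaturated chains, fell by 1.92 ± 0.18 with 10 nM.

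Of 14 genes of fatty acid activation and glycerolipid synthesis, 1 rose and 4 fell at 24 h, 4 rose and 3 fell with 40 nM at 48 h, and 5 rose and 2 fell with 10 nM. GPAM, the mitochondrial acyltransferase that starts glycerolipid synthesis, had changes of -0.93 ± 0.08, -1.24 ± 0.08 and -2.19 ± 0.08 in these comparisons, and all 3 passed. DGAT2, which completes triglyceride, fell by 0.50 ± 0.10 at 24 h and rose by 0.79 ± 0.10 with 40 nM and 1.01 ± 0.10 with 10 nM at 48 h. Of 15 fatty acid oxidation genes, 8 rose and 2 fell at 24 h, 6 rose and 2 fell with 40 nM at 48 h, and 3 rose and 0 fell with 10 nM (66.7%, 53.3% and 20% of the list). Beside this list, 31.5%, 21.3% and 26.3% of all genes passed, and 53.7%, 38.9% and 45.6% of the brighter genes. PPARA, the receptor that drives fatty acid oxidation, rose by 1.05 ± 0.11 at 24 h.

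Of 8 genes of the liver X receptors and their other targets, 3 rose and 1 fell at 24 h, 1 rose and 1 fell with 40 nM at 48 h, and 3 rose and 0 fell with 10 nM. The shares were 50%, 25% and 37.5%. Beside this list and the next ones, 31.5%, 21.3% and 26.3% of all genes passed, and 53.7%, 38.9% and 45.6% of the brighter genes. NR1H3, which encodes LXR alpha, rose by 0.94 ± 0.10 at 24 h and by 0.36 ± 0.10 with 10 nM. Of 17 genes of intracellular sterol handling, 5 rose and 3 fell, 4 rose and 2 fell, and 4 rose and 7 fell in the same order. The shares were 47.1%, 35.3% and 64.7%. NPC1, which releases cholesterol from lysosomes, rose by 0.81 ± 0.09 with 10 nM. It was lower by 0.63 ± 0.09 with 40 nM than with 10 nM at 48 h. In a different comparison, 40 nM against vehicle at 48 h, its partner NPC2 fell by 0.57 ± 0.06. Of 9 SREBP proteases and sterol-regulated ligases, 2 rose and 4 fell, 2 rose and 1 fell, and 3 rose and 1 fell (66.7%, 33.3% and 44.4% of the list). RNF145, a ligase of sterol control, fell by 0.61 ± 0.05 at 24 h and rose by 0.16 ± 0.05 with 10 nM. PAQR3, which anchors the SCAP and SREBP complex to the Golgi, fell by 0.68 ± 0.09 at 24 h. The 40 nM effects on RNF145 and PAQR3 were more positive at 48 h than at 24 h, by 0.65 ± 0.07 and 0.49 ± 0.13. Of 12 genes of the non-sterol isoprenoid branch, 2 rose and 3 fell, 2 rose and 1 fell, and 2 rose and 3 fell (41.7%, 25% and 41.7% of the list). RABGGTB, a subunit that attaches geranylgeranyl to Rab proteins, rose by 0.84 ± 0.07 at 24 h, by 0.45 ± 0.07 with 40 nM at 48 h and by 0.44 ± 0.07 with 10 nM.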

How the data were processed

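Total RNA of A549 cells was measured on 15 arrays in 5 groups of 3. The authors deposited log2 signals, 1 per probe set and array. Per the submitters' processing notes, RMA was run in Expression Console (version not given in the sources used here). Of 54675 probe sets, 62 controls were set aside, 41091 had 1 symbol, 1801 several and 11721 none, and 41037 symbols were updated through gene IDs. Each gene was represented by its brightest 1-symbol probe set over the 15 arrays, giving 19775 genes. limma 3.58.1 in R 4.3.3 (lmFit, eBayes) was fitted to all arrays with 5 group means, two-sided, with Benjamini-Hochberg adjustment over all genes and a threshold of 0.05, and was tested on simulated data. Probe sets were fitted likewise. Of genes outside the members, up to 4 per list and comparison that passed could be named, by size of change. The members and lists were chosen with earlier results of these data known. Alternatives were 2 further normalizations, 2 probe set rules, a filter on dim genes, a trended robust prior, the replicate number as a block, fewer arrays in the fit and each array left out.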

Additional observations from a re-analysis of the deposited data

Results flagged for a closer look

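The effect of 40 nM geldanamycin differed between 48 h and 24 h, by limma's contrast of the 2 effects, for 10 members. INSIG1 (1.31, adjusted p = 4.43e-06), DHCR7 (0.47, 0.0241), EBP (0.42, 0.00197), SCD (0.42, 0.00328), IDI1 (0.38, 0.00694) and NSDHL (0.35, 0.0136) had the more positive effect at 48 h. With averaged probe sets SCD was at 0.11 (0.495), EBP at 0.14 (0.316) and IDI1 at 0.33 (0.0571), and without probe sets that may match several transcripts NSDHL was at 0.17 (0.357) and IDI1 at 0.33 (0.579), and none of these passed. ACSS2 (-0.66, 0.000494), MYLIP (-0.53, 0.041), SCAP (-0.38, 0.0193) and ABCA1 (-0.37, 0.044) had the more positive effect at 24 h. MYLIP and ABCA1 each lost this call in 14 of 21 alternatives, SCAP in 3 of 21 and DHCR7 in 6 of 20.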

How the results depend on the processing

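Of the 65 member calls over the 5 comparisons, 29 held in every alternative that measured the gene and 36 were lost in at least 1. Calls of PMVK, TM7SF2, ACSS2 and AACS, among others, were not checked without probe sets that may match several transcripts. STARD4 was not measured once dim genes were left out. With 10 nM, members lower were 9 after cyclic loess and members higher 4 after subtraction of array medians. With all 1-symbol probe sets averaged per gene, members higher were 5 with 40 nM at 48 h and 3 for the difference between times, ACACA turned to -0.15 at 24 h and -0.043 between doses, and the member median at 24 h was -0.04. Without probe sets that may match several transcripts (names ending in _x_at or _s_at), 20 members were left. Members higher were then 6 at 24 h, 3 with 10 nM, 2 with 40 nM at 48 h, 3 between doses and 1 for the difference between times. Members lower were 3 with 10 nM, 0 with 40 nM at 48 h and 1 for that difference, and IDI1 turned to -0.28 between doses. Members lower for the difference between times were 2 with the replicate block, 2 with the compared arrays alone and 2 without the 10 nM arrays. Over the 12 pairs of same-numbered arrays within a time, the correlation of deviations ran from -0.41 to 0.29 and 4 exceeded 0.1, and across times it ran from -0.463 to 0.504, so the numbers were not taken to pair the arrays; the block left 152 member results on their side of the threshold and lost 3. With 1 array left out, members higher ranged from 8 to 11 at 24 h, 5 to 8 with 10 nM, 6 to 7 with 40 nM at 48 h, 8 to 10 between doses and 5 to 9 for the difference between times, and members lower from 4 to 7, 4 to 5, 2 to 2, 4 to 5 and 1 to 4. The cause of these shifts was not tested. With 3 arrays a group, the number of arrays limits the precision.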
